A study of Xenopus laevis with 6 samples.

Results

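At late gastrula, part of the accessible chromatin of Xenopus laevis ectoderm, cultured as explants, lay in dense clusters. Open regions of the stage 12 list on the 18 assembled chromosomes were linked into chains wherever the gap to the next region was at most 5 kb. Chains of 6 or more regions were kept. This rule gave 433 chains with 3109 of the 55045 stage 12 regions on the chromosomes, or 5.65% of them. The whole stage 12 list, unplaced scaffolds included, held 61049 regions. Because the chains were picked from stage 12 positions, their number, size and density at that stage are descriptions. Region widths come from the same intervals and are descriptions too. Only the stage 10 list and the other readouts of each region were not used to pick them. Fold enrichment and −log10 p are taken against local background, so they may not be independent of close neighbours.

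The regions come from ATAC-seq, in which the transposase Tn5 inserts adapters into open chromatin. Ectoderm, known in this embryo as the animal cap, was dissected at stage 9 and grown to stage 10 (early gastrula) or stage 12 (late gastrula). Each stage had 3 libraries of 2 explants, read as paired ends of 100 nucleotides, and no genotype, strain or treatment beyond the culture is given in the labels. All 3 libraries of a stage stand behind a single list of regions, so a value for 1 library, a spread between replicates and a test between stages were not available here. Coordinates are those of the lists, for which the submitters' processing notes name the build xenLae2. The gene table at hand was of another build, so no gene, exon or promoter is assigned to a region, and the tissue label could not be checked against marker genes.

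Animal cap cells are pluripotent at the blastula stage and lose that state during gastrulation, when they take on epidermal or neural fates. Enhancers and promoters are the main classes of DNA that open in such cells. Genes that control development are often flanked by several enhancers, and groups of closely spaced open regions are commonly used to mark loci of that kind. Such a group can arise in more than one way. Outer regions can open beside a core that was open earlier (extension), or regions can open between those already open (infill).

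A late region is called kept here where it shared 1 bp or more with a region of stage 10, and new otherwise. Of the 3109 chain regions, 1791 were kept, a share of 57.6% (95% Wilson interval 55.9% to 59.3%), against 54.4% of all stage 12 regions on the chromosomes. The remaining 1318 were new, a share of 42.4%, against 45.6% of all stage 12 regions. The share of kept regions in dense chains was therefore close to that of the list as a whole. Regions of like strength differed, in a direction that depended on the measure and on its level. Among regions with a recovered pileup, the read depth at the summit, of 200 to 400 reads, 66.0% were kept in chains and 85.1% outside. From 100 to 200 reads these shares were 39.3% and 50.9%, and at 400 reads or more 91.5% and 96.8%. Under 100 reads there were only 148 chain regions, of which 25% were kept, against 21.6% of 16343 outside. At a −log10 p of 50 to 100, 47.7% were kept in chains and 38.6% outside. Under 50 these shares were 29.3% and 19.3%, and from 100 to 200 they were 76.7% and 73.1%. At 200 or more the order turned, with 91.8% in chains and 94.7% outside. Regions with no neighbour within 5 kb were kept in 55.2% of cases. Wilson intervals in this text cover counting error only, and regions of a chain lie close together and share their libraries.

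The chains were short stretches of DNA. The median chain held 7 regions (interquartile range 6 to 8, highest 15) over 11909 bp (interquartile range 8661 to 15388 bp). The shortest spanned 2598 bp and the longest 37225 bp. There were 205 chains of 6 regions, 114 of 7, 73 of 8 or 9 and 41 of 10 or more. Together the chains spanned 5.36 Mb, which is 0.214% of the length from the chromosome starts to the last listed regions. Stage 12 regions covered 24.5% of that DNA and stage 10 regions 15.4%. Within chains the median gap between neighbours was 914 bp, and over all neighbours of the list it was 12672 bp. The limits of the rule did not fall at a natural break. Gaps within the last 500 bp under the limit numbered 993, and gaps up to 500 bp over it numbered 953. The 387 chains of 5 regions, just outside the rule, had a median span of 8067 bp, a median of 3 stage 10 regions and 53.9% kept regions. For the 205 chains of 6, just inside, these values were 9740 bp, 4 and 54.6%.

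Individual chains differed in their makeup. Of the 3 chains with 15 regions, the largest number, the shortest lay at chr3L:128879819-128900979 (21.2 kb). It held 15 regions at stage 12 and 8 at stage 10. All 8 stage 10 regions were kept, and the other 7 stage 12 regions lay between them. The stage 10 regions already reached from one end of this chain to the other, at 21.1 kb. They lay in 3 separate groups or single regions more than 5 kb apart. Its new regions had fold enrichments over local background from 3.896 to 8.03, and its kept regions from 6.35 to 14.01. These folds are the authors' values at the best summit of a region. The longest chain, at chr2L:57904172-57941396 (37.2 kb), had a similar layout, with 15 regions at stage 12 and 8 at stage 10. Of its regions 7 were kept, 7 were new between stage 10 regions and 1 was new outside them, 3830 bp from the nearest.

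Other chains were almost wholly new. At chr6L:89258739-89280722 (22.0 kb) there were 12 regions at stage 12 and 1 at stage 10. The single stage 10 region covered 198 bp, and new regions lay on both sides of it, 3 to the left and 8 to the right, out to 14829 bp from it. This was the chain with the largest gain. The next largest was at chr2S:130709733-130736911 (27.2 kb), with 12 regions against 2. Both of its stage 10 regions lay under the first stage 12 region, and the other 11 were new and lay to the right of them. A further stage 10 region lay within 5 kb of its right end, outside the chain. At chr8L:72644969-72655533 there were 9 regions against 1. At chr4L:21824922-21839058 there were 9 regions and none at stage 10, and the closest stage 10 region was 62658 bp away. Fold enrichment in that chain ran from 3.28 to 7.34 and recovered pileups from 120 to 409.

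A few chains held more regions at stage 10 than at stage 12. The strongest case, at chr3L:128919837-128938131 (18.3 kb), held 8 regions at stage 12, all of them kept, and 13 at stage 10. Of the 13, 5 overlapped no stage 12 region. A further 7 stage 10 regions were linked to it beyond its left end, in steps of at most 5 kb. They lay towards the 15-region chain on the same chromosome. Another dense chain, chr3L:128906774-128910770 with 7 regions against 6, lay between these chains. That chain in turn had 7 stage 10 regions linked beyond its right end. Its own 6 stage 10 regions can be among the 7 linked to the chain with 13. At chr7S:67178344-67199403 there were 7 regions against 11, and at chr7L:92922396-92941110 there were 8 against 11. The remaining chains named by the same rule were chr5L:129151109-129162390 and chr4L:103481207-103493796, each with 6 regions against 8. Between these extremes was chr1L:153945326-153967365, with 12 regions at both stages, of which 10 of the stage 12 regions were kept.

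**Figure D1:**
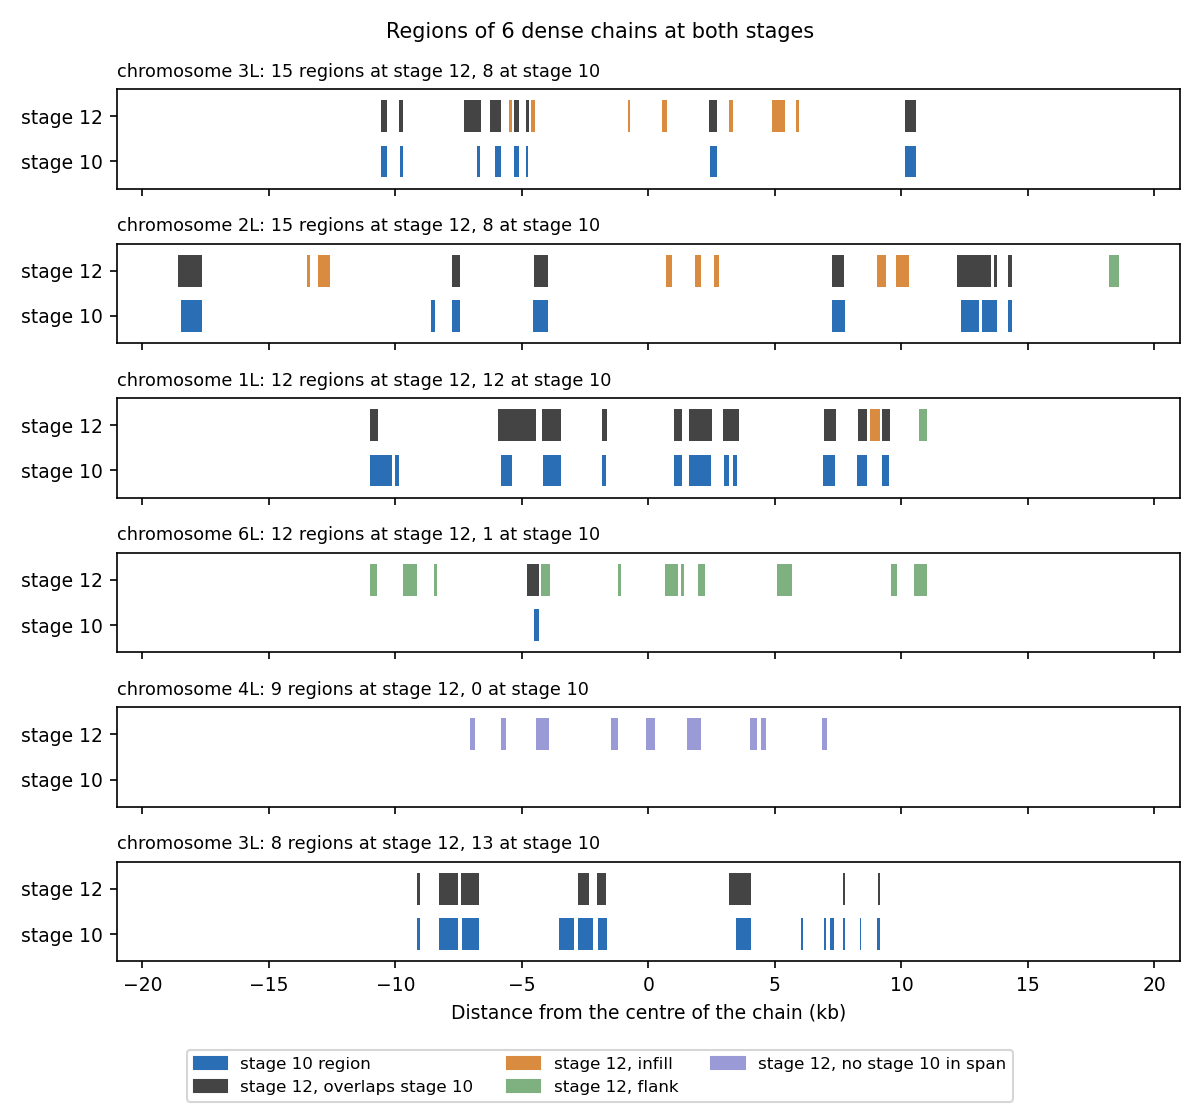
Bars mark regions of 6 dense chains, at their distance in kb from the centre of the chain; blue bars are stage 10 regions and the other colours class the stage 12 regions. The upper 3L chain has 7 new regions between its 8 stage 10 regions, and the 6L chain holds 1 stage 10 region among 12. The lower 3L chain holds 13 at stage 10 against 8 at stage 12.

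Across the 433 chains the stage 10 list held 1985 regions in the same spans, a median of 4 per chain (interquartile range 3 to 6, lowest 0, highest 13). The mean was 4.58 at stage 10 and 7.18 at stage 12. Stage 10 had fewer regions in 368 chains, the same number in 37 and more in 28. A lower count at stage 10 follows in part from picking the chains at stage 12. The background floors recovered from the lists were 2.2 at stage 10 and 4.7 at stage 12, a ratio of 2.14, and the stage 12 list held 1.37 times as many regions on the chromosomes. The part of depth in these counts was not tested. With the stage 12 list shortened to the length of the stage 10 list by −log10 p, stage 12 had 152 such chains and stage 10 had 230, the reverse of the full lists (433 and 230). Shortened by pileup instead, stage 12 had 375. There were 144 chains with at least 6 stage 10 regions (33.3%), 273 with 1 to 5 (63.0%) and 16 with none (3.70%, Wilson interval 2.29% to 5.92%). Of the 1985 stage 10 regions in the spans, 183 overlapped no stage 12 region, a share of 9.22%, against 22.3% of all stage 10 regions on the chromosomes. Since the spans were picked for many stage 12 regions, a low share was built into this last comparison.

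**Figure D2:**
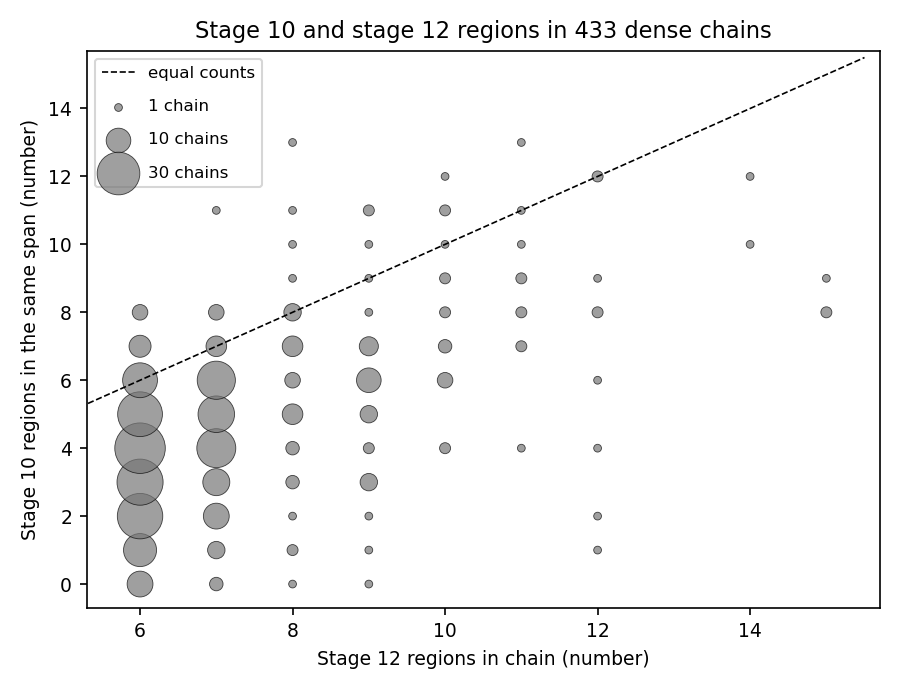
Each circle gives the number of chains (its area) with a given number of stage 12 regions (x axis) and of stage 10 regions in the same span (y axis); the dashed line marks equal counts. Most chains lie below the line, 37 lie on it and 28 above it, and 16 chains sit at 0 stage 10 regions.

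New regions lay both outside the stage 10 regions of their chains and between them. The counts below give the position of regions with no listed overlap at stage 10. Growth between the stages was not tested. In the 417 chains with at least 1 stage 10 region there were 1214 new regions. Of these, 554 lay with stage 10 regions of the chain on both sides (infill, 45.6%, Wilson interval 42.9% to 48.4%) and 660 lay outside the stage 10 regions of the chain (flank, 54.4%, 51.6% to 57.1%). Both kinds occurred together in 166 chains. A further 117 chains had infill only, 109 had flank only and 25 had no new region. Flank regions lay at both ends in 74 of the 275 chains that had any.

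Which kind was more common depended on how it was counted. Chains with only 1 stage 10 region cannot have infill, and these 27 chains gave 150 flank regions. In the 390 chains with 2 or more stage 10 regions, 52.1% of new regions were infill (49.1% to 55.1%). Stage 10 regions linked to a chain beyond its ends, in steps of at most 5 kb, numbered 208 summed over 92 chains. A region could count for more than 1 chain. Counting flank regions on those sides as infill moved 59 of them and gave 50.5%. Per available place, the order was the other way round. A chain offers 1 interior place between each pair of neighbouring stage 10 regions and 2 end places. New regions numbered 0.353 per interior place over 1568 places and 0.791 per end place over 834. An end place has no fixed length, whereas interior places are bounded, so the 2 rates describe the layout and are not rates per base.

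Filled gaps were longer than unfilled gaps, in part by construction. Of the 1568 gaps between neighbouring stage 10 regions, 377 (24.0%) received at least 1 new region and 121 received 2 or more. Filled gaps had a median length of 4213 bp (interquartile range 2186 to 5670 bp), and unfilled gaps 580 bp (218 to 1769 bp). A long gap has more room for a region. Neighbouring late regions of a chain also lay at most 5 kb apart, so a gap well over 5 kb was nearly bound to hold a new region. The longest unfilled gap was 5617 bp and the longest filled gap 15574 bp. The contrast in length was therefore partly built in. The median infill region lay 785 bp from the nearest stage 10 region and the median flank region 2422 bp from it. Short distances are built in here, since these regions were linked within 5 kb steps to a chain that held a stage 10 region. In chains with no stage 10 region the median distance was 21013 bp.

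The length beyond the outermost stage 10 regions varied widely between chains. In the chains with a stage 10 region, the outermost stage 10 regions already spanned a median of 86.7% of the later chain (interquartile range 56.6% to 98.95%). This median includes the chains without flank regions. Summed over these chains, DNA beyond the outermost stage 10 regions made up 25.1% of the span. In the 275 chains with flank regions, the ends lay beyond the outermost stage 10 regions of the chain by a median of 3505 bp in total. The highest value was 26401 bp, in the chain on 2S described above. A further stage 10 region lay 789 bp past the right end of that chain, so its new regions also lay between stage 10 regions. The ends of chains were kept nearly as often as their inner regions, in 56.0% (52.7% to 59.3%) against 58.2% (56.2% to 60.3%) of cases. In chains of 3 to 5 stage 12 regions these shares were 51.3% and 55.0%.

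Some chains joined stage 10 regions that lay more than 5 kb apart. A group in what follows can be a single stage 10 region. When the stage 10 regions of each span were linked by the same 5 kb gap, 287 chains held a single stage 10 group, 118 held 2 groups and 12 held 3. The 130 chains (30.02%) that joined groups contained 300 of the 554 infill regions. Groups lie more than 5 kb apart and stage 12 neighbours of a chain at most 5 kb. Infill was thus nearly built into these chains, and 125 of the 130 had it. Of the 287 chains with a single group, 202 had flank regions (70.4%) and 158 had infill (55.1%). The 287 include the 27 chains with only 1 stage 10 region, which cannot have infill, so part of this contrast was built in.

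The makeup of chains shifted with their size. Kept regions made up 54.6% of regions in chains of 6 and 61.2% in chains of 10 or more. Infill made up 15.04% and 24.7% in the same classes, and flank regions 25.04% and 14.1%. Chains with no stage 10 region contributed 5.37% of the regions in chains of 6 and none in the 41 chains of 10 or more. A chain with more stage 10 regions has more interior places, which bears on this order.

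**Figure D3:**
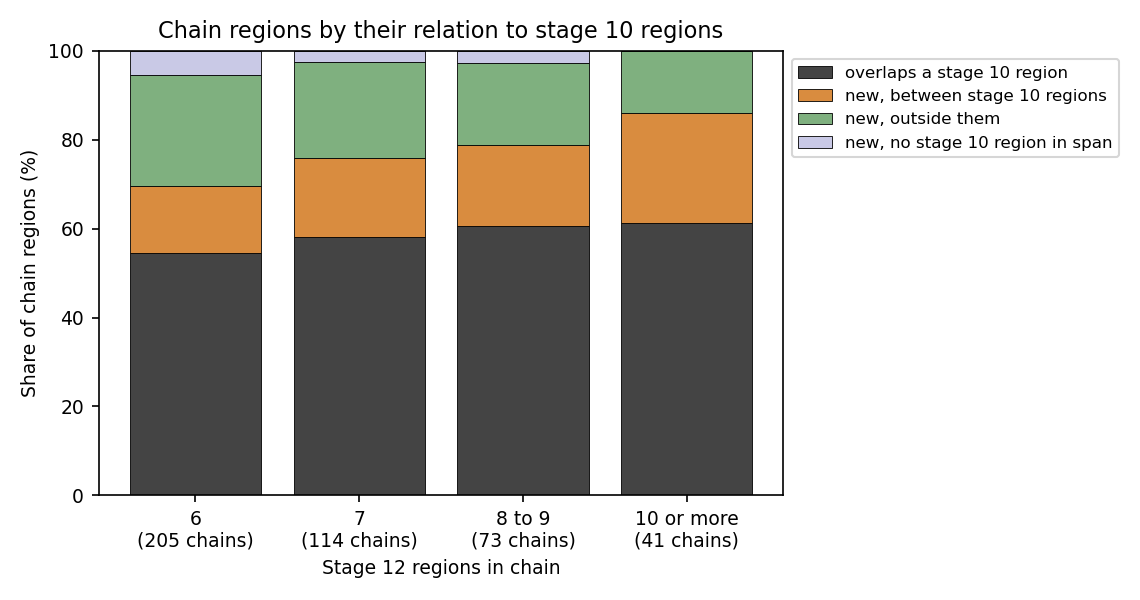
Stacked bars give the share of stage 12 chain regions (%) that overlap a stage 10 region, lie between stage 10 regions, lie outside them, or belong to a chain without any, for 4 classes of chain size. Infill makes up 15.04% of regions in chains of 6 and 24.7% in chains of 10 or more, and flank regions 25.04% and 14.1%.

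The same rule applied to the stage 10 list gave 230 chains with 1678 regions, of median span 11301 bp. Of these regions 1250 overlapped a stage 12 region (74.5%), against 77.7% of all stage 10 regions on the chromosomes. Of the 230 stage 10 chains, 129 (56.1%) overlapped one of the 433 stage 12 chains. In the other direction, 131 of the 433 stage 12 chains (30.3%) overlapped a stage 10 chain. The stage 10 chains that met no stage 12 chain had a median of 4 stage 12 regions in their span. In the stage 10 chains, regions present only at stage 10 lay between stage 12 regions in 262 of 420 cases (62.4%, Wilson interval 57.7% to 66.9%). Per place they numbered 0.238 inside and 0.345 at the ends, so ends led here too. This share is not set against that of infill in the stage 12 chains, because the stage 10 chains held a median of 6 stage 12 regions and so offered more interior places than the stage 12 chains, with a median of 4 stage 10 regions.

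To let neither stage form the chains alone, both lists were merged into 63505 intervals and chained in the same way. This gave 665 chains with 5049 intervals. Both stages listed 49.5% of these, stage 12 alone 34.2% and stage 10 alone 16.3%. Over all merged intervals, stage 12 alone listed 39.5% and stage 10 alone 14.1%. Dense chains formed this way thus held a somewhat smaller share of stage 12 regions without a counterpart than the genome at large. Overlap by position alone is likelier where regions are dense, and its part in this difference was not tested. Stage 12 had more intervals in 423 of these chains (63.6%) and stage 10 had more in 147 (22.1%). Intervals of stage 12 only lay between stage 10 intervals in 50.5% of 1624 cases (48.1% to 52.9%). Intervals of stage 10 only lay between stage 12 intervals in 66.3% of 815 cases (62.9% to 69.4%). With more stage 12 than stage 10 intervals in a chain, an interval of stage 10 only has more chances to fall between 2 others, so these shares describe position and do not by themselves separate gain from loss.

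Regions in dense chains were narrower and less enriched than other late regions, although more reads lay over them. Within the stage 12 list, their median width was 358 bp (interquartile range 223 to 549 bp), against 584 bp (355 to 854 bp) for the 51936 regions outside. Width comes from the interval ends that the rule used, so this difference is a description. Single-summit regions made up 34.7% of the chain regions and 19.9% of the others. Median fold enrichment was 5.62 (4.31 to 7.65) in chains and 10.5 (7.65 to 14.7) outside. The pileup recovered from the authors' fold and p-value went the other way, with medians of 215 reads (152 to 320) and 141 reads (88 to 246). The local background that entered the fold had medians of 38.2 (26.5 to 55.4) and 12.9 (7.91 to 21.4). What raised the background in chains was not tested, nor how far the close neighbours that the rule requires enter it. When chains with a median background over 4 times the floor were left out, 20 of the 433 remained, with 43.0% of 128 regions kept. No kept share of low-background regions outside chains was counted beside it. Nearly all that is said here of dense chains thus concerns loci of high background. The score given by the authors was at its cap of 1000 for 75.4% of chain regions and 74.2% of the others, which is nearly the same share.

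These differences followed the number of neighbours. Median fold was 12.8 in isolated regions and 5.36 in chains of 10 or more, while median pileup was 123 and 244 reads and median local background 8.92 and 45.0. The stage 10 list, chained on its own, showed the same order, with folds of 10.0 and 4.88, pileups of 56 and 110 and backgrounds of 4.75 and 22.4. The stage 10 regions inside the stage 12 chains had a median fold of 5.61, against 8.76 for stage 10 regions elsewhere.

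**Figure D4:**
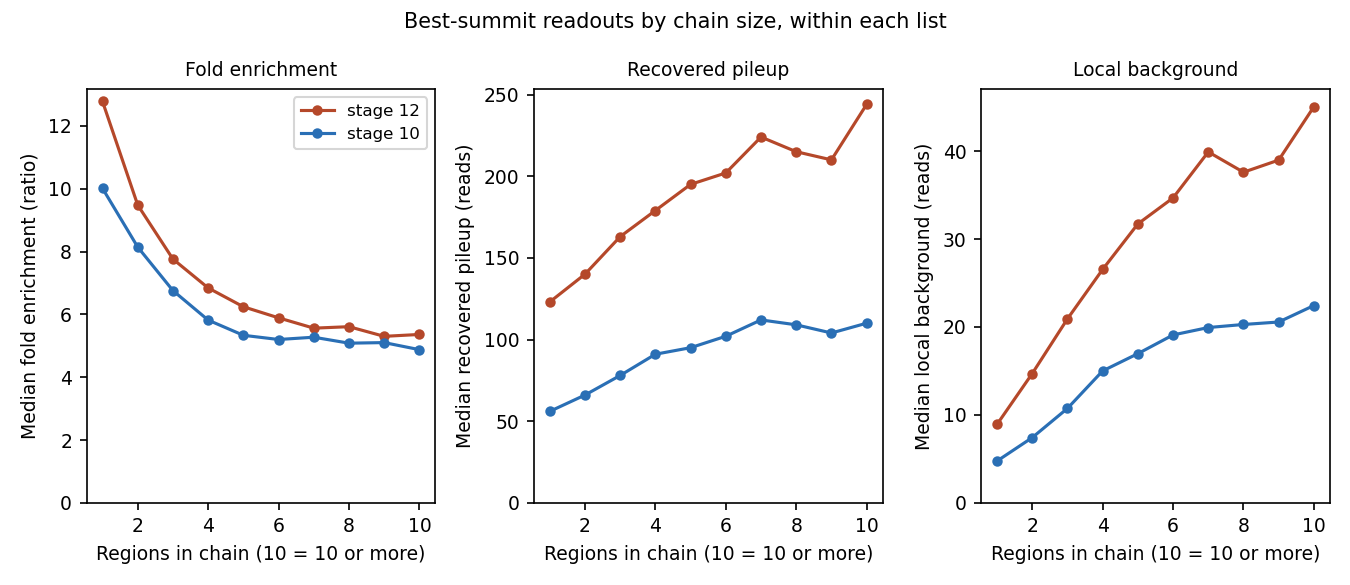
Points give the median fold enrichment (ratio), recovered pileup (reads) and recovered local background (reads) of regions in chains of 1 to 10 or more regions, for each list. Between the first and last class at stage 12 the fold goes from 12.8 to 5.36, the pileup from 123 to 244 and the background from 8.92 to 45.0. Levels are not compared between the lists, whose recovered background floors differ (2.2 at stage 10 and 4.7 at stage 12).

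Within chains, kept regions were the strong ones, as they were in the list at large. Their median pileup was 273 reads, against 182 for infill and 160 for flank regions, and their median fold was 6.49, against 4.32 and 5.18. The region with the highest −log10 p of a chain was kept in 377 of 433 chains (87.1%), the second in 78.5%, the third in 66.7% and the lowest in 31.4%. Outside chains the order was the same, with 94.7% kept at a −log10 p of 200 or more and 19.3% under 50. Kept regions outside chains had a median pileup of 217 reads and a fold of 13.1, and new ones 95 reads and 8.61. Infill regions were the narrowest, at a median of 262 bp, and 50.4% of them had a single summit. Flank regions were 302 bp wide at the median and kept regions 427 bp. An infill region had to fit between stage 10 regions without touching them, so this order of widths was partly built into the classes. Local background was lower around flank regions (30.1) than around infill (40.9) and kept regions (42.2). The 104 regions of chains without a stage 10 region had a median pileup of 147 reads, a fold of 5.70 and a background of 23.3.

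Chain regions that matched a single stage 10 region, and were matched by no other, changed little in width. In 1617 such pairs the late region was the wider in 63.6% of cases, with a median ratio of 1.04. In 25676 pairs outside the chains these values were 70.4% and 1.05. Late regions that bridged 2 or more stage 10 regions numbered 71 in the chains (2.28%), against 3.18% elsewhere. A bridging region takes the place of several in the count that picked the spans, and chain regions were narrower. The bridging contrast was therefore partly built in. Stage 10 regions divided between 2 or more late regions made up 2.82% of those in the spans and 1.17% of those outside. A divided region adds to the count that picked the spans, so a higher share inside them was built in.

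Xenopus laevis is allotetraploid, with 9 homeologous pairs of an L and an S chromosome. The L chromosomes held 273 of the 433 chains (63.0%, Wilson interval 58.4% to 67.5%) and 59.3% of all stage 12 regions. Chain density per 100 Mb was 19.96 for the L set and 14.05 for the S set. They were denser on L than on S in 6 of 9 pairs. As a share of the regions present, chain regions were more common on L in only 4 of 9 pairs, at 6.11% over all L and 4.98% over all S chromosomes. Pair 3 decided much of this. Without it, L held 59.4% of the chains and 58.4% of the regions, and the shares of regions in chains were 5.60% and 5.22%.

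Chromosome 3L stood out, with 55 chains, 38.2 per 100 Mb, and 9.31% of its 4479 regions in chains. Its partner 3S had 11 chains, 9.13 per 100 Mb, and 2.95% of its regions in chains. On 3L, 27 of the 55 chains started beyond 120 Mb, where 26.4% of its regions lay. The 2 windows of 1 Mb with the most chain regions were neighbours there, from 128 to 130 Mb, with 5 chains each. They held 45 and 41 regions at stage 12, and 36 and 33 at stage 10. The chains of 3L beyond 120 Mb together held 217 regions at stage 12 and 175 at stage 10. Chain regions on 3L were kept in 65.2% of cases, the highest share of the 18 chromosomes, against 53.2% of all stage 12 regions on 3L. Those on 4L were kept in 46.3%, the lowest share, against 50.7% of all stage 12 regions on 4L. On 4L there were 32 chains with 110 stage 10 regions for 216 at stage 12. Chromosomes 7L and 7S had 17 and 15 chains, 9_10L and 9_10S had 13 each, and 2L and 2S had 35 and 14.

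**Figure D5:**
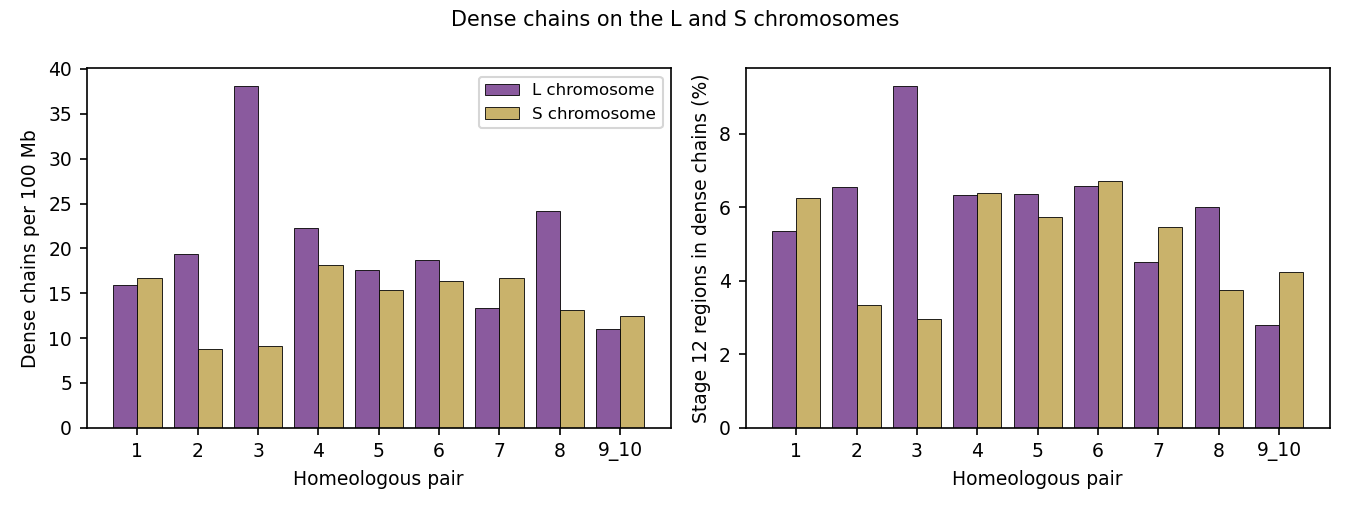
Bars give the number of dense chains per 100 Mb (left) and the percentage of stage 12 regions that lie in dense chains (right) for the L and S chromosome of each pair. Chromosome 3L is highest on both scales, at 38.2 per 100 Mb and 9.31%, and its partner 3S is at 9.13 and 2.95%.

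Chains were mostly far apart. The median distance from one chain to the next on a chromosome was 3103 kb (interquartile range 811 to 6895 kb). Of the 415 pairs of neighbouring chains, 13 lay within 10 kb of each other, 30 within 50 kb and 44 within 100 kb. Chains occurred in 358 windows of 1 Mb, of which 12 held 3 or more. The outermost 5 Mb of the chromosomes held 52 chains (12.0%), with 10.7% of the stage 12 regions.

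The largest chains are given here by position, without genes. After the 3L chain and the 2L chain already described, the third with 15 regions lay at chr1S:162216476-162240842 and held 9 at stage 10. Its 15 regions were 9 kept, 5 infill and 1 flank region. The chains with 14 regions were chr1S:126905565-126927582, with 10 at stage 10, and chr1L:197473813-197500049, with 12. Those with 12 regions included chr9_10S:102051076-102066591 with 8 at stage 10, chr9_10S:22606444-22622068 with 6 and chr2L:75990339-76006350 with 4. In the last of these, 6 of the 8 new regions were flank regions, in contrast to the chains of 14 and 15 regions, which had at most 1 each. Long spans were also found at chr5L:137897205-137925064 (27.9 kb), with 11 regions against 4, and at chr9_10S:46680406-46706137 (25.7 kb), with 10 against 9. The further chains without a stage 10 region named by rule lay at chr4L:137333958-137347935 with 8 regions, and at chr9_10S:1080366-1092077, chr7L:69861685-69875208 and chr7L:57367923-57382180 with 7 each.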

How the data were processed

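The authors deposited 1 list of regions per stage, with 10 columns in narrowPeak order and no header, so what follows on their columns rests on the values. The deposited score is a whole number up to 1000, the deposited fold is a ratio to local background, and the deposited −log10 p belongs to a summit. The −log10 q columns, 2 in all, were not used here. The submitters' processing notes name bcl2fastq 2.20 and the build xenLae2. The aligner, peak caller and any Tn5 shift are not given in the sources used here, nor is whether libraries were pooled.

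Rows with the same interval were joined, and a region took the values of its summit with the highest −log10 p. The pileup and background that give a summit's fold and −log10 p under a Poisson upper tail were recovered, with a misfit under 0.01 for 99.96% of stage 10 and 99.95% of stage 12 regions. The most common background was taken as the floor. The depth of a library is unknown. Python 3.11.15 with pandas 2.3.3, scipy 1.17.1 and matplotlib 3.10.9 was used, and the code was tested on simulated data. No test between stages was possible, and none was run. Named chains are the 10 with most regions (ties to the shorter), and 5 each with most regions among those without a stage 10 region, the largest gain, the largest loss and the longest span. Single regions or windows described beyond these were chosen after their values were seen. Alternatives changed the gap, the chain size, the list length, the overlap, the score, merging and background. The chains and these choices were made with earlier results of these data known.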

Additional observations from a re-analysis of the deposited data

Results flagged for a closer look

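Unplaced scaffolds lay outside the chromosomes on which the chains were counted, and they carried dense chains too. The same rule gave 35 chains on 23 scaffolds, with 253 of the 6004 stage 12 regions there (4.21%). Of these 253 regions 60.9% were kept (Wilson interval 54.7% to 66.7%), and 52 of their 99 new regions were infill. The share kept over all stage 12 regions of the scaffolds was not counted, so 60.9% has no background value beside it. None of these chains was without a stage 10 region.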

How the results depend on the processing

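No paired analysis was possible because the 3 libraries of a stage share 1 list, and for the same reason no replicate could be left out. Alternatives changed the numbers of chains, by construction where the gap, the size or the regions admitted changed; the cause of the other shifts was not tested. A gap limit of 2500 bp gave 127 chains with 836 regions, and 72 stage 10 chains. A 10000 bp gap gave 1114 chains, 9176 regions and 578 stage 10 chains, with 53.5% kept, 1.89% of chains without a stage 10 region and 74.5% reaching beyond their stage 10 regions. Chains of 5 or more numbered 820 with 5044 regions (467 at stage 10), 38.0% infill among new regions and 22.4% joining stage 10 groups. Chains of 8 or more numbered 114 with 1081 regions (70 at stage 10), 60.8% kept, 1.75% without a stage 10 region, 55.8% infill, a median of 6.5 stage 10 regions, 67.5% on L and 43.9% joining groups.

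Lists of equal length by −log10 p gave 152 chains with 1038 regions, 68.2% kept, 1.32% without a stage 10 region, 54% reaching beyond and 74.3% on L. Overlap of 50% of both regions gave 49.5% kept and 54.9% infill. In that setting a region that touched a stage 10 region by less was counted as infill, even at a chain end. Its infill share is therefore not comparable with the others. Counting regions within 500 bp as shared gave 67.7% kept, 39.6% infill and 56.4% reaching beyond. Regions at the top score only gave 166 chains with 1141 regions (23 at stage 10), 45.7% kept, 38.9% infill, 75.5% reaching beyond, a median of 3 stage 10 regions, 72.9% on L and 39.2% joining groups. Leaving out chains of high background gave 20 chains with 128 regions (7 at stage 10), 43.0% kept, 20% without a stage 10 region, 40.8% infill, a median of 3 and 50% joining groups. Infill was therefore the smaller or the larger share of new regions depending on the setting, also without the 50% overlap.

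Alternatives chosen after seeing the data gave 60.1% kept with equal lists by pileup, 665 chains and 50.5% infill with the lists merged, and 52.1% infill in chains with 2 or more stage 10 regions. The depth of the libraries is unknown, and how far it limits the stage 10 counts was not tested.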
